A study of Mus musculus with 42 samples.

Results

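The genes of the nuclear pore and of the receptors that carry cargo through it were examined in 42 single retinal progenitor cells of CD-1 mice. The group holds all genes whose symbol on the array begins with Nup, Kpna, Kpnb, Ipo, Xpo or Tnpo followed by a digit. By this rule 41 genes were included, of 18194 genes that had a probe set with a single symbol. The rule used names only and no measured value. In the order of development, embryonic day 12.5 (E12.5) gave 11 cells, E13.5 gave 4, E14.5 gave 2, E15.5 gave 1, E16.5 gave 11 and postnatal day 0 (P0) gave 13. Retinas were dissociated, single cells were picked, and each cell's cDNA went through PCR amplification onto its own array. All cells were untreated and of the same outbred strain, and the study named them progenitors only after their profiles had been read. It took most of the 42 for cycling progenitors. The others it took for most likely transitional cells, in which a score of neuron genes was significant as well. E14.5 B1 and E16.5 F1 were named among the transitional cells. The labels do not say which animal or litter a cell came from, and therefore each stage counted as 1 sample, stages were not tested against each other, and no p-value is given.

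The nuclear pore is a channel through the nuclear envelope built from many copies of proteins called nucleoporins, which form an outer ring (the Y complex), an inner ring, a central channel lined with phenylalanine-glycine repeats, filaments on the cytoplasmic face, a basket on the nuclear face and a ring in the membrane. Proteins with a nuclear localization signal are bound by an importin alpha adaptor, which is carried inward by importin beta (Kpnb1), while exportins such as Xpo1 carry cargo outward, and the small GTPase Ran sets the direction of both. In mammalian cells the envelope and the pores are taken apart at mitosis and rebuilt afterwards, and the Y complex moves to kinetochores in between. Progenitors divide throughout retinal development, and the genes were therefore also examined beside Cdc20, an activator of the anaphase-promoting complex that is abundant from G2 to mitosis. In the study, Cdc20 transcript overlapped with a label of S phase, and the authors thought its expression most likely begins there. Presence of Cdc20 alone therefore does not place a cell in G2 or mitosis.

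A signal is the linear MAS5 intensity of a gene's highest probe set, scaled alike on every array, and a gene was called present in a cell at a signal of 1000 or more. A signal under 1000 leaves it unknown whether the cell held the transcript, because amplification can lose some transcripts. Probe sets differ in sensitivity, so the order of genes by number of cells is not an order of transcript levels. For 5 of the E16.5 cells (J1, J2, J4, E8 and F1) the arrays had a different pattern of the hybridization controls (deviation 0.64 to 0.67, SD on the log2 scale) from the other 37 arrays (at most 0.20). Between 1386 and 5253 genes were present per cell. Of the markers, 5 progenitor genes (Ccnd1, Pax6, Sox2, Fgf15 and Dkk3) were present in 89.5% of their values, against 17.9% for 15 genes of ganglion, amacrine and photoreceptor cells, with Rcvrn in no cell, and 7.14% for 5 genes of blood, skin and muscle.

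The region around the start of a gene is shown for Kpna2 and Cdc20, which are set side by side below, for Kpnb1, the member in the most cells, and for Nup37, a gene described by stage below. Each line gives 250 bases before and 50 bases after the start site of RefSeq (GRCm38.p6), 5′ to 3′ on the strand of the gene. Capitals mark matches, on either strand, to CCAAT, or to the hexamer TTTGAA, the core of an element known from promoters of mitotic genes. The windows lie at chr11:106999476-106999775, minus strand, for Kpna2, at chr4:118437294-118437593, minus strand, for Cdc20, at chr11:97187843-97188142, minus strand, for Kpnb1, and at chr10:88146742-88147041, plus strand, for Nup37.
Kpna2: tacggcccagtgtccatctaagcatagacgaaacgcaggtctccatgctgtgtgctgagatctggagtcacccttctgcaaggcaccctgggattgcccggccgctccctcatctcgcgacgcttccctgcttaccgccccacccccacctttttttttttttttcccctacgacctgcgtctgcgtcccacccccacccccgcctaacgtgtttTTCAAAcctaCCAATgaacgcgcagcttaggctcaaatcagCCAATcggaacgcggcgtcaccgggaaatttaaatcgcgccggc
Cdc20: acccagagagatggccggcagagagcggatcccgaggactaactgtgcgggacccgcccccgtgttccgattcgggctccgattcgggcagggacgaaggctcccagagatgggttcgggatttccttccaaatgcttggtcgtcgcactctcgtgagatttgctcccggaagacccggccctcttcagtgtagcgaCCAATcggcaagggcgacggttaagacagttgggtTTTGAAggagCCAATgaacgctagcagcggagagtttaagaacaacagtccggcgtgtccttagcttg
Kpnb1: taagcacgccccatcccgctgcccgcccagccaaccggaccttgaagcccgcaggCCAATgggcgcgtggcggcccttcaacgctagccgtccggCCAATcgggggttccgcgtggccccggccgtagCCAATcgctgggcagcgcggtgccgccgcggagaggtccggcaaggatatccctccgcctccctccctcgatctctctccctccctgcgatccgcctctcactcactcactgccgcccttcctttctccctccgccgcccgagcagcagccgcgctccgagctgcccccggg
Nup37: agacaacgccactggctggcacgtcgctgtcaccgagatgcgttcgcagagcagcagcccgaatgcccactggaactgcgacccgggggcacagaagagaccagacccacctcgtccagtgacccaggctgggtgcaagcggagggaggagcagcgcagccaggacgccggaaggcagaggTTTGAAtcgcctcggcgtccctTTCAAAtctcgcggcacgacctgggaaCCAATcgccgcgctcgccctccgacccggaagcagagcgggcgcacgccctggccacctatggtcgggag

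In the window of Kpna2 the TTTGAA match began 35 bases before the start site (position -35, on the opposite strand) and the nearest CCAAT at -25. In the window of Cdc20 the TTTGAA match began at -18 and the nearest CCAAT at -8. In both genes 4 bases lay between the matches, a spacing that was noticed in these letters. Of 27025 windows of all genes, 1925 (7.12%) held both motifs and 29 (0.107%) had this spacing, on either strand and in either order. Among the 33 members with a window, 5 (15.2%) held both motifs and only Kpna2 had the spacing. It was picked from the windows of Kpna2 and Cdc20, which are among those counted, so the count is no test of it. Nup37 had TTTGAA matches beginning at -69 and, on the opposite strand, at -47, and CCAAT at -20, and Kpnb1 had no TTTGAA and CCAAT at -195, -155 and -122. RefSeq windows were at hand for 33 of the 41 members. TTTGAA was found in 7 of the 33 (21.2%) and in 18.1% of all windows, CCAAT in 19 (57.6%) and in 37.9% of all windows, and GGCGGGAA, a form of the E2F site, in 2 (6.06%, Nup133 and Nup210) and in 2.24% of all windows. CCAAT and TTTGAA are short and occur often by letters alone, and a match is not a site of binding.

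Members were present in 746 of 1722 combinations of a gene and a cell (43.3%, exact 95% interval 41.0 to 45.7%), while all genes were present in 17.0% of their combinations. This interval, like those that follow, covers counting error only, and genes in the same cell are not independent. The value of a gene is that of its highest probe set, and members had more probe sets per gene. The 41 members had 107, and the 18194 genes had 34958. With the mean of the probe sets the share of members was 35.8%, and that of all genes was not computed. In all, 40 of the 41 members reached 1000 in at least 1 cell. The exception was Nup210l, a relative of the membrane nucleoporin gp210, with a highest signal of 888.7 in E16.5 cell F1. Each member was present in a median of 19 cells. There were 4 members in 1 to 4 cells, 21 in 5 to 20 cells, 10 in 21 to 29 cells and 5 in 30 cells or more, and none was present in all 42 cells, as 57 genes of the array were.

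**Figure D1:**
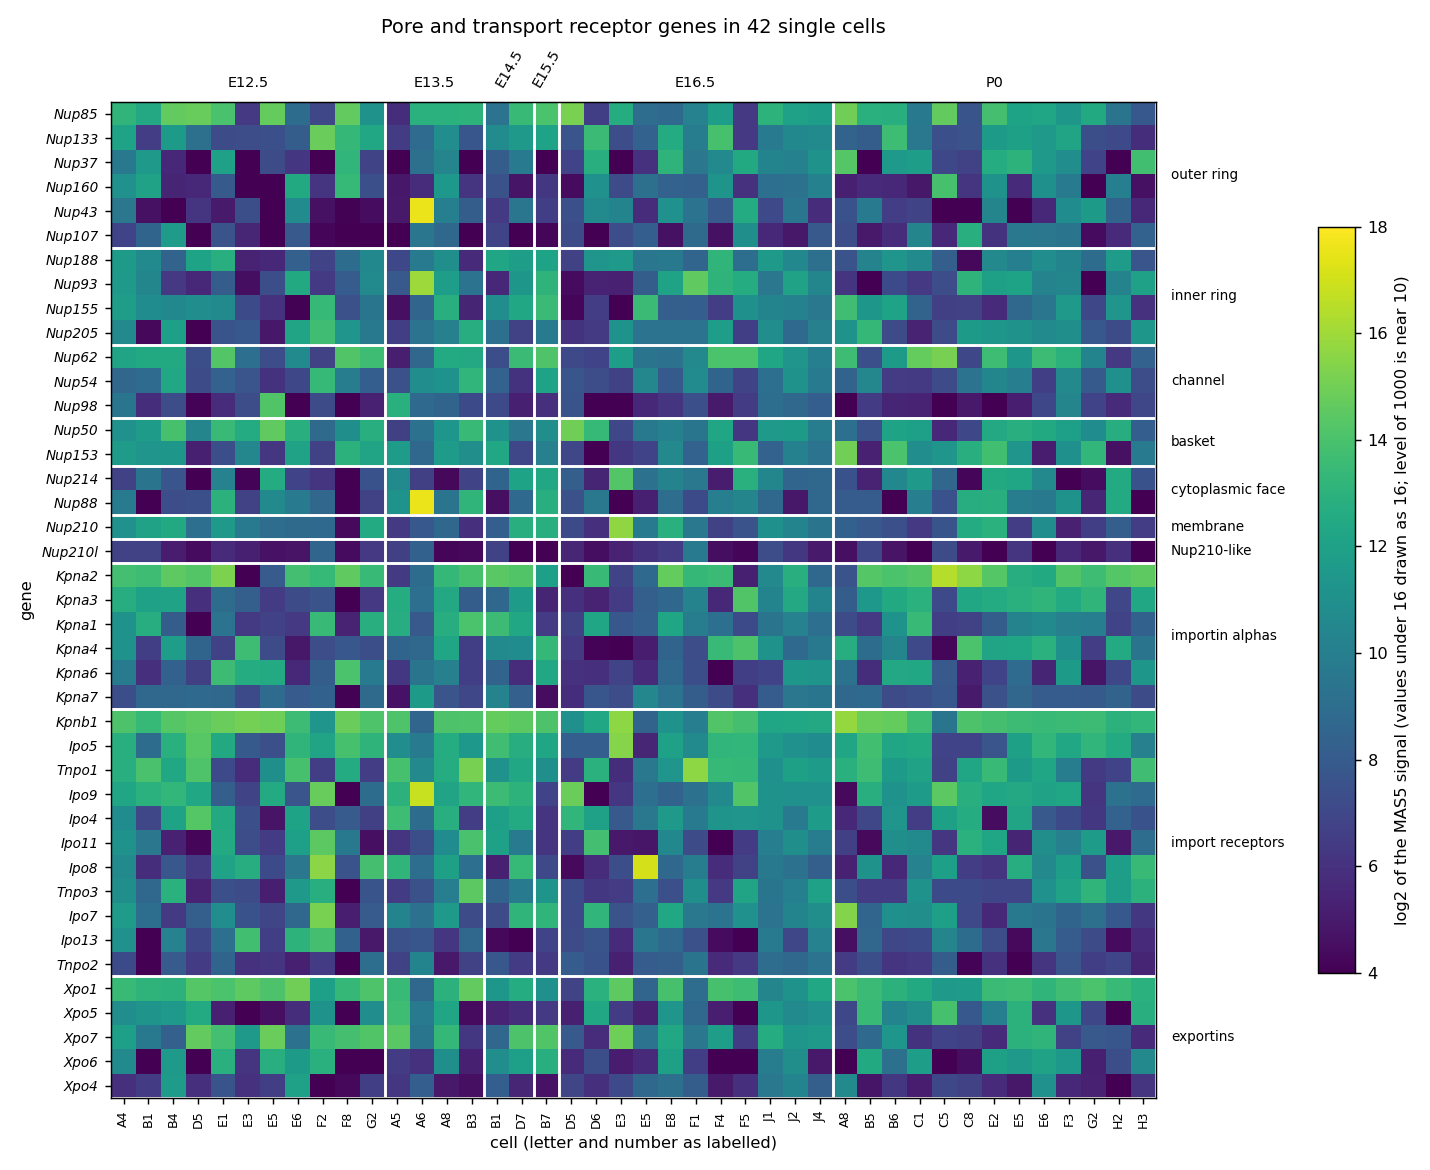
Log2 of the MAS5 signal of the 41 genes (rows, by role and then by number of cells) in each of the 42 cells (columns, by stage). Kpnb1 and Xpo1 form bright rows across all stages (39 and 38 cells at 1000 or more), most other rows alternate between bright and dark cells of the same stage, and E13.5 cell A6 holds isolated very bright squares for Nup43, Nup88 and Ipo9.

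The genes in the most cells were receptors. Kpnb1, importin beta itself, was present in 39 of 42 cells (92.9%, interval 80.5 to 98.5%). Its signals ran from 2546 over a median of 20448 to 33991 at E12.5, from 345 over 5233 to 50496 at E16.5 and from 694 over 12257 to 55544 at P0. It missed the level in E13.5 A6, E16.5 E5 and P0 C5, with signals of 345 to 694. Xpo1 (CRM1), the exporter of proteins with a leucine-rich export signal, was present in 38 cells (90.5%, 77.4 to 97.3%), in all 11 E12.5 cells, 8 of the 11 E16.5 cells and all 13 P0 cells. Its lowest, median and highest signals were 3884, 16837 and 31805 at E12.5, 116 and 5455 and 23639 at E16.5, and 2990, 11211 and 16814 at P0. Stages overlapped for both genes, and the cells without Xpo1 were E13.5 A6 and E16.5 D5, E5 and F1.

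Kpna2, the importin alpha that is best known from dividing cells, and Ipo5, an importer of ribosomal proteins and histones, were each present in 32 cells (76.2%, 60.5 to 87.9%). Kpna2 was found in 9 of the 11 E12.5 cells, 2 of the 4 E13.5 cells, both E14.5 cells, the E15.5 cell, 6 of the 11 E16.5 cells and 12 of the 13 P0 cells. Its signals were 11.8, 14391 and 38406 at E12.5 (lowest, median and highest), 6.81, 1517 and 26028 at E16.5 and 193, 19807 and 89519 at P0. The lowest signals among the cells with it were 1517 in E16.5 J1 and 3759 in E15.5 B7, and the cells without it were at 486 or less. Ipo5 was found in 8, 8 and 10 cells at E12.5, E16.5 and P0, with signals of 173, 7143 and 21361 at E12.5, 46.0, 2209 and 45564 at E16.5 and 111, 5016 and 13710 at P0. Tnpo1 (transportin), which imports hnRNP proteins, was present in 31 cells (73.8%, 58.0 to 86.1%), including all 4 at E13.5. Its signals were 53.9, 5233 and 17928 at E12.5, 56.9, 3279 and 49459 at E16.5 and 83.2, 4362 and 13557 at P0, and the stages overlapped for Ipo5 and Tnpo1 alike. All 5 of these genes were present together in 20 cells and 4 of the 5 in 15 further cells, while E16.5 E5 had none.

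The next genes were mostly nucleoporins. Nup85 of the Y complex was present in 29 cells (69.0%, 52.9 to 82.4%), with signals of 79.7, 9320 and 27560 at E12.5, 80.3, 3610 and 37591 at E16.5 and 197, 5058 and 31896 at P0. Both of its probe sets gave nearly the same count, 29 and 28 cells. Nup50 of the nuclear basket was present in 28 cells (66.7%, 50.5 to 80.4%), with signals of 467, 6311 and 24675 at E12.5, 73.7, 1156 and 31743 at E16.5 and 49.8, 3841 and 7148 at P0. Nup153, the other basket gene, was present in 25 cells (59.5%, 43.3 to 74.4%), with 37.7, 2494 and 8228 at E12.5, 5.04, 341 and 11316 at E16.5 and 24.6, 2519 and 32757 at P0. Nup62, the central glycoprotein of the channel, was present in 27 cells (64.3%, 48.0 to 78.4%), with 109, 4710 and 19739 at E12.5, 112, 1546 and 16733 at E16.5 and 81.2, 3139 and 35647 at P0. Nup85 and Nup50 were highest in E16.5 D5, Nup153 in P0 A8 and Nup62 in P0 C5, and the stages overlapped for each. The basket pair made up the group with the highest share of values present, 63.1% (interval 51.9 to 73.4%), and 20 cells had both. Ipo9, a histone importer, was present in 27 cells and varied widely, with 10.6, 4985 and 27230 at E12.5, 8.15, 1684 and 29300 at E16.5 and 20.8, 4225 and 23094 at P0. Its highest signal, 114016, was that of E13.5 A6.

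By role, the share of values present was 48.2% (40.5 to 56.0%) for the 4 inner ring genes, Nup188, Nup93, Nup155 and Nup205, which were found in 19 to 22 cells each. It was 36.9% (30.9 to 43.2%) for the 6 Y complex genes, which ran from 4 cells for Nup107 to 29 for Nup85, although their products are parts of the same assembly. No cell had all 6 of them, E13.5 A8 had 5, and 3 cells had none. They are not the whole complex, because the symbol rule leaves out genes of it such as Sec13. The share was 34.9% for the 3 channel genes (Nup98 in only 3 cells), 33.3% for the cytoplasmic face (Nup214 in 15 cells and Nup88 in 13) and 33.3% for the membrane nucleoporin Nup210 (14 cells). Among receptors it was 48.7% (44.1 to 53.4%) for the 11 import receptors, 49.5% (42.6 to 56.5%) for the 5 exportins and 41.3% (35.1 to 47.6%) for the 6 importin alphas. The lowest receptor counts were those of Tnpo2 with 1 cell, Kpna7, an importin alpha known from oocytes and early embryos, with 3, Xpo4 with 5 and Ipo13 with 7. Xpo5, which exports microRNA precursors, was present in 21 cells and Tnpo3, the importer of splicing factors of the SR family, in 17.

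Signals were mostly either high or well under the level. Of the 1722 values, 833 were under 500, 143 from 500 to 1000, 142 from 1000 to 2000 and 604 at 2000 or more, including 198 at 10000 or more. The SD over cells on the log2 scale had a median of 2.81 over the 36 members in 5 cells or more (1.77 to 3.78) and of 2.70 over the 7685 genes in 5 cells or more. The highest signals were isolated. Nup43 reached 195909, Nup88 195145 and Ipo9 114016, all in E13.5 A6, and Ipo8 reached 138722 in E16.5 E5, a cell with only 3 other members (Kpna7, Nup54 and Nup155). E13.5 A6, E16.5 F1 and E16.5 E5 also had few members for their number of genes. Members were 0.25, 0.19 and 0.28% of the genes present in them, beside a median of 0.59% over all cells. The part of such cells in these values was not tested.

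The number of members per cell ran from 4 to 31, with a median of 17.5. It was 9 to 29 (median 18) at E12.5, 9 to 31 (median 16) at E13.5, 17 and 22 at E14.5, 23 at E15.5, 4 to 27 (median 19) at E16.5 and 12 to 28 (median 15) at P0. The highest numbers were those of E13.5 A8 with 31, E12.5 A4 with 29 and P0 F3 with 28, and the lowest those of E16.5 E5 with 4 and D5 with 5. These numbers moved with the number of genes present in the cell. Across the 42 cells the Spearman correlation was 0.71 (Pearson 0.70), a description of points that share the amplification yield of a cell. It was 0.65 within E12.5 (11 cells), 0.64 within E16.5 (11 cells) and 0.91 within P0 (13 cells). E13.5 A6 had 9 members among 3554 genes and E16.5 F1 had 10 among 5253, and without these cells the correlation was 0.87 (40 cells). E16.5 D5 and E5 had the fewest genes of all cells, 1386 and 1438.

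**Figure D2:**
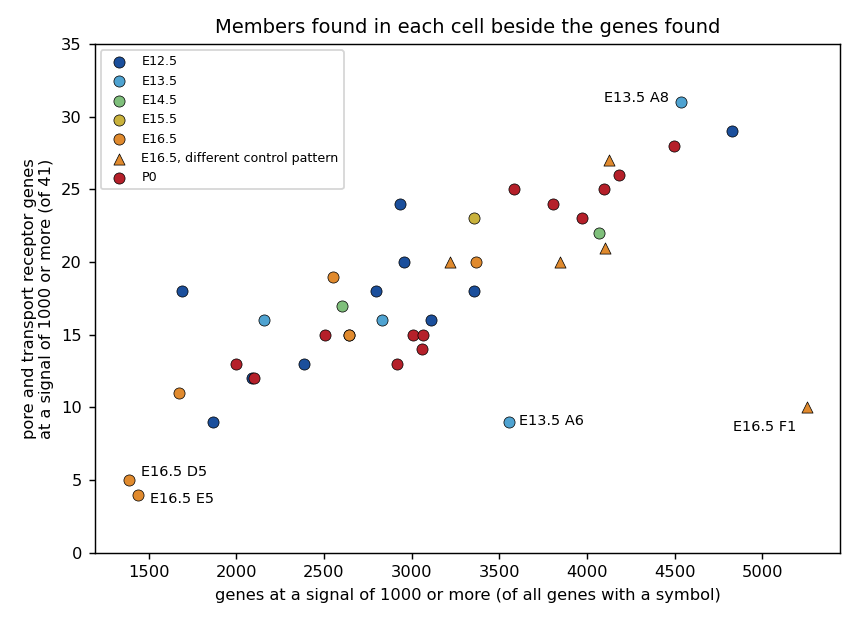
Number of the 41 genes at a signal of 1000 or more (vertical axis) beside the number of all genes at that level (horizontal axis), 1 symbol per cell, colored by stage, with triangles for the 5 E16.5 arrays of a different control pattern. Cells lie along a rising band, from E16.5 E5 and D5 with 4 and 5 members to E13.5 A8 with 31, and E13.5 A6 (9) and E16.5 F1 (10) lie under it.

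By stage, members were present in 42.6% of their values at E12.5, 43.9% at E13.5, 47.6% at E14.5, 56.1% at E15.5, 38.1% at E16.5 and 46.5% at P0, and all genes in 15.3, 18.0, 18.3, 18.5, 16.8 and 18.1%. Within E16.5, the share was 47.8% on the 5 arrays of a different control pattern and 30.1% on the other 6, beside 22.58 and 11.97% for all genes.

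The change over development was read from P0 and E12.5, the stages with 13 and 11 cells at either end. A difference of 30 percentage points or more in the share of cells was counted, over genes present in at least 5 of the 42 cells, which 36 members were. At P0 3 of the 36 members (8.33%) were found in more cells by this limit, beside 11.1% of the 7685 genes compared, and 2 (5.56%) in fewer, beside 3.59%. Both shares are near those of all genes. The median difference was 5.59 points for members and 5.59 points for all genes compared. The intervals given with single differences hold counting error alone.

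Neuron markers moved with the same comparison. They were present in 23.1% of their values at P0 and 7.27% at E12.5, 14 of the 15 markers in some P0 cell and 6 in some E12.5 cell. A P0 cell had 0 to 10 of them (median 2), with a summed signal of 845 to 60615 (median 4851), and an E12.5 cell 0 to 3 (median 1), with 1585 to 16915 (median 7291). Rcvrn was present at neither stage. Without the 3 P0 cells that had 9 or 10 of the markers (B5, B6 and C1), a choice made after the data were seen, 4 members were past the limit upward (Kpna3 at 42.7 points, Kpna4 at 42.7, Nup37 at 32.7 and also Nup93), beside 13.4% of all genes, and 3 downward (Xpo7 at -52.7, Ipo13 at -35.5 and also Nup50), beside 4.41%.

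The 3 genes found more often at P0 were the importin alphas Kpna3 and Kpna4, adaptors of a subfamily other than that of Kpna2, and Nup37, a component of the Y complex. Kpna3 was present in 10 of 13 P0 cells, with signals of 128, 5806 and 9327 (lowest, median and highest), and in 3 of 11 E12.5 cells, with 5.49, 195 and 6793. The difference was 49.7 points (Newcombe interval 9.69 to 72.7). All 10 P0 cells lay between 2860 and 9327, and the other 3 were at 277 or less. The E12.5 cells with Kpna3 were A4, B1 and B4, at 4145 to 6793, so that both stages held cells at similar signals and their ranges overlapped. At E16.5, 5 of 11 cells had it, 4 of them among the arrays of a different control pattern.

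Kpna4 was present in 8 of 13 P0 cells (19.1, 2074 and 17040) and in 3 of 11 E12.5 cells (29.5, 165 and 12699), a difference of 34.3 points with an interval of -4.91 to 61.4 that includes 0. Nup37 had the same counts, 8 of 13 P0 cells (6.90, 3020 and 20437) and 3 of 11 E12.5 cells (2.76, 119 and 9602), and the same interval. The ranges of the stages overlapped for both genes. Nup37 was found in 7 of 11 cells at E16.5, and Kpna4 in 3 of 11.

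The 2 genes found less often at P0 were Xpo7, a nuclear export receptor of broad cargo, and Ipo13, an import receptor of the importin beta family. Xpo7 was present in 3 of 13 P0 cells, with signals of 50.4, 159 and 8987, and in 8 of 11 E12.5 cells, with 312, 11092 and 29080. The difference was -49.7 points (interval -72.7 to -9.69). The P0 cells with Xpo7 were B6, E5 and E6, and the other 10 were at 444 or less. It was present in 6 of 11 cells at E16.5 and, between these stages, in E13.5 A5 and A8, E14.5 D7 and E15.5 B7. Ipo13 was present in 1 of 13 P0 cells, C5 with 1348, and in 5 of 11 E12.5 cells, with signals of 14.2, 558 and 15253 over the stage, a difference of -37.8 points (interval -65.0 to -2.53). The only other cell with Ipo13 was E16.5 J4, at 1183. Leaving out any single cell kept the differences of these 5 genes past 30 points (31.1 at the least, for Kpna4 and Nup37), but other processing did not. Kpna4 was at 17.5 points with the 3000 highest genes of each cell called present and after quantile normalization, and at 26.6 points at a level of 2000 and with the mean of the probe sets. Nup37 was at 25.2 points at a level of 500 and at 26.6 points at a level of 2000, with the 3000 highest genes and after quantile normalization. Kpna3 was at 40.6 to 49.7 points and Ipo13 at -39.2 to -30.1 points under these settings. The difference of Kpna3 rested on its probe set found in the most cells, with 10 of 13 P0 cells and 3 of 11 E12.5 cells. Its other probe sets gave 5 of 13 with 3 of 11, and 4 of 13 with 2 of 11. Xpo7 was at -31.5 points with the probe set of the highest mean, and its 2 main probe sets gave 3 of 13 P0 cells with 6 of 11 E12.5 cells, and 3 of 13 with 4 of 11. Just short of the limit was Nup50, found in 8 of 13 P0 cells and in 10 of 11 E12.5 cells (-29.4 points).

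**Figure D3:**
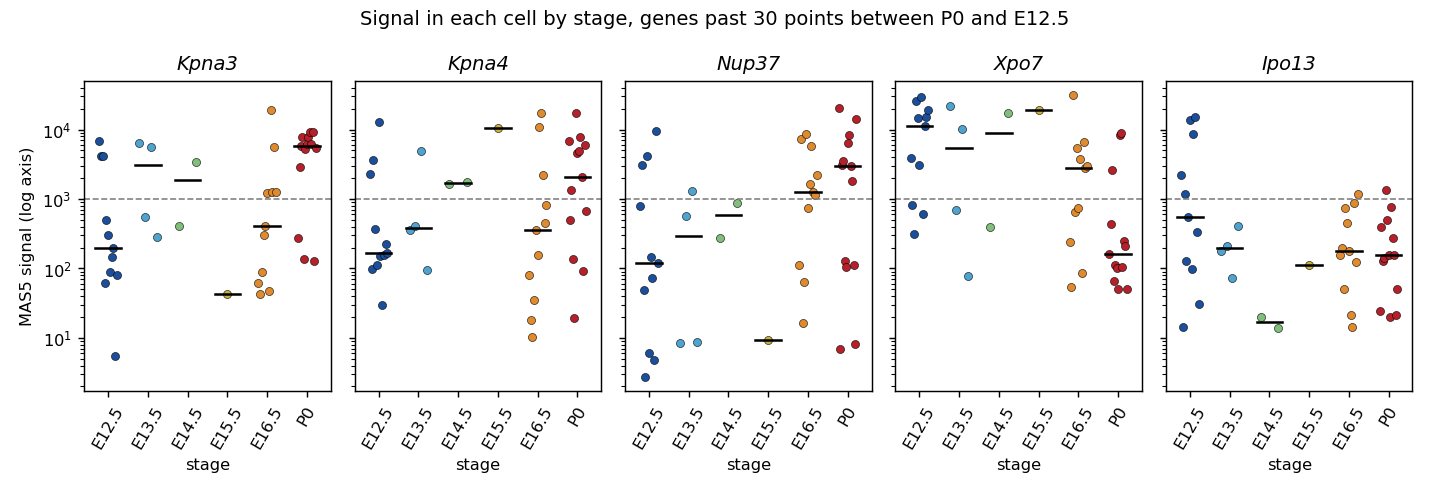
MAS5 signal (vertical, log axis) of Kpna3, Kpna4, Nup37, Xpo7 and Ipo13 in each cell by stage (horizontal), with bars for medians and a dashed line at 1000. Kpna3, Kpna4 and Nup37 have medians above the line at P0 and below it at E12.5, Xpo7 has the reverse order (159 at P0 and 11092 at E12.5), and in every panel the P0 and E12.5 cells overlap.

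The same shares are given for the most common genes. Kpna2 was present in 92.3% of P0 cells and 81.8% of E12.5 cells (10.5 points, interval -18.3 to 40.7), Kpnb1 in 92.3 and 100% (-7.69 points, -33.3 to 19.0), and Xpo1 in 100 and 100% (0 points, -22.8 to 25.9).

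**Figure D4:**
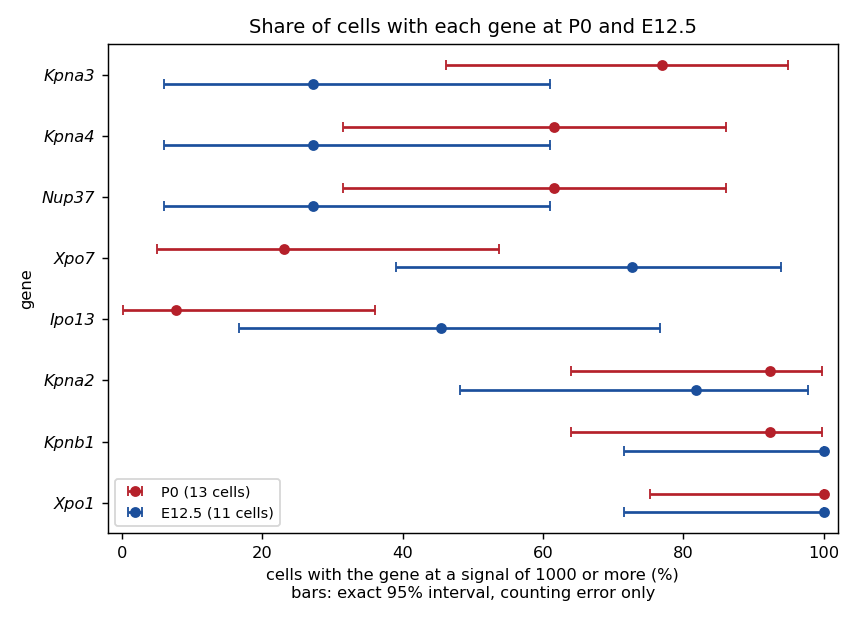
Share of cells, in percent, in which the gene reached 1000 (horizontal axis) at P0 (red, 13 cells) and E12.5 (blue, 11 cells), with exact 95% intervals. Points of P0 lie to the right for Kpna3 (76.9 and 27.3%), Kpna4 and Nup37, to the left for Xpo7 and Ipo13, and near those of E12.5 for Kpna2, Kpnb1 and Xpo1.

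The importin alphas were also counted together, since a cell can use several adaptors. Of the 6 genes, 2 cells had none, 7 cells had 1, 15 had 2, 8 had 3, 7 had 4 and 3 had 5. P0 cells had a median of 3 (1 to 5) and E12.5 cells a median of 2 (1 to 4), counts that include Kpna3 and Kpna4 and so restate their differences. The 10 P0 cells with Kpna3 all had Kpna2 as well, as had the 3 E12.5 cells with Kpna3. Kpna2 without Kpna3 was seen in 2 of 13 P0 cells and 6 of 11 E12.5 cells. Kpna2 and its carrier Kpnb1 were present together in 31 cells. Kpna3 without Xpo7 was the state of 7 of 13 P0 cells and 2 of 11 E12.5 cells, and Xpo7 without Kpna3 that of 0 of 13 P0 cells and 7 of 11 E12.5 cells. Kpna3 and Xpo7 were taken for their stage differences, so these counts restate them. Over all 42 cells, 10 had both genes, 11 only Xpo7, 11 only Kpna3 and 10 neither.

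Further genes of nuclear transport lie outside the symbol rule, and 23 of them were listed (Ran and its regulators, other nucleoporins, other carriers and mRNA export factors). They were present in 49.4% of their values (46.2 to 52.6%). Ran was present in all 42 cells, Cse1l, which returns importin alpha to the cytoplasm, and Ranbp1 in 31, and Nxf1, the main mRNA exporter, in 30. The fewest cells were those of Nupl2 (now Nup42) with 1, Ddx19b with 2 and Ranbp17 with 3. Of the 20 listed genes compared, 3 (15%) were past the limit upward at P0, beside 11.1% of all genes, and 1 (5%) downward, beside 3.59%. Ahctf1 (ELYS), which starts pore assembly on chromatin after mitosis, was present in 9 of 13 P0 cells and 1 of 11 E12.5 cells (60.1 points, interval 20.9 to 79.7). Sec13, shared by the Y complex and the COPII coat, was present in 10 of 13 and 3 of 11 (49.7 points, 9.69 to 72.7), and Rae1, an mRNA export factor, in 8 of 13 and 2 of 11 (43.4 points, 4.01 to 67.9). Xpot, the exporter of tRNA, was present in 4 of 13 P0 cells and 8 of 11 E12.5 cells (-42.0 points, -67.1 to -2.21).

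Cdc20 was present in 23 of the 42 cells, 7 at E12.5, 2 at E13.5, 1 at E14.5, 1 at E15.5, 4 at E16.5 and 8 at P0. Cells with Cdc20 had a median of 16 members (4 to 31) and of 3006 genes in all, and cells without it a median of 18 members (9 to 28) and of 3063 genes. Members were present in 44.5% of the values of cells with Cdc20 (41.3 to 47.8%) and 41.8% of those of cells without it (38.4 to 45.4%). No member differed by 30 points in either direction (0 of 36), beside 2.03% of the 7684 genes compared that were found more often in cells with Cdc20 and 1.65% found less often. The median difference was 2.29 points for members and 0.23 points for all genes. In a list of 8 other genes of mitosis, 6 were past 30 points upward, among them Cenpa, the histone H3 variant of centromeres (51.0 points), and Plk1, a mitotic kinase (40.7 points). Some cells called without Cdc20 were near the level. P0 F3 had a Cdc20 signal of 991.9 and all 8 of these genes. The study named it among cells with robust markers of both G1/S and G2/M. P0 C1 had 790.7 and 7 of the 8. Cells without Cdc20 had a median of 5 of them at P0, 3 at E16.5 and 1 at E12.5. F3 also had Nup85, the member closest to the limit, at 2671. The 0 of 36 therefore depends on the call of this cell.

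Nup85 came closest to the limit. It was present in 19 of 23 cells with Cdc20 (82.6%), with signals of 197, 9320 and 37591, and in 10 of 19 cells without Cdc20 (52.6%), with 57.6, 1160 and 8411. The difference was 29.98 points (interval 1.84 to 53.3). The groups overlapped, but 13 of the 23 cells with Cdc20 had signals above the highest of the cells without it. Leaving out single cells moved the difference between 27.1 and 33.7 points, on both sides of the limit. Under 9 other settings of the processing it was 26.0 to 42.0 points, in 7 of them past the limit. Next were Xpo6 upward (13 of 23 and 6 of 19 cells, 24.9 points) and Nup43 downward (3 of 23 and 7 of 19 cells, -23.8 points), with intervals that include 0. Nup43 is a gene of the Y complex, as Nup85 is. The 6 Y complex genes of the symbol rule together were present in 37.0% of the values of cells with Cdc20 (28.9 to 45.6%). In cells without Cdc20 the share was 36.8% (28.0 to 46.4%).

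Across the 42 cells the signal of Nup85 had a Spearman correlation of 0.63 with that of Cdc20 (Pearson 0.57 on the log2 scale), the third highest of the 7684 genes compared. A correlation of 0.3 or more, a limit chosen after the values were seen, was reached by 3 of 36 members (Nup85, Kpna6 with 0.36 and Kpna2 with 0.34; 8.33%) and by 3.53% of all genes compared. In the mitosis list it was reached by 7 of 8 genes, with Plk1 highest at 0.60. These points share the yield and the scaling of their arrays, and signals under 1000 enter their order. Without the 2 cells farthest from the median of Cdc20, the correlation of Nup85 was 0.58, and on the 37 arrays of the usual control pattern it was 0.71. After quantile normalization of the arrays it was 0.41. Its probe sets gave 0.61 and 0.60.

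The relation was also computed within stages. Within E12.5 the correlation was 0.84 (11 cells), within E16.5 it was 0.47 (11 cells) and within P0 it was 0.16 (13 cells). At E12.5 all 7 cells with Cdc20 had Nup85, at signals of 2378, 25489 and 27560 (lowest, median and highest), and 1 of the 4 cells without Cdc20 had it, the signals there being 79.7, 127, 487 and 5659. These E12.5 cells with Cdc20 had a median of 2937 genes and those without it of 2332.5, whereas at E16.5 the medians were 2327.5 and 3367 and at P0 3034 and 3975. The part of these numbers in the relation was not tested. At E16.5, Nup85 was present in 2 of 4 cells with Cdc20 and 5 of 7 without it, and the highest signals of both genes in the series stood in the same cell, D5 (37591 for Nup85 and 22229 for Cdc20), which also had the highest Nup50 (31743). At P0 it was present in 6 of 8 cells with Cdc20 and 3 of 5 without it. Whether the stages differ in this relation was not tested.

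**Figure D5:**
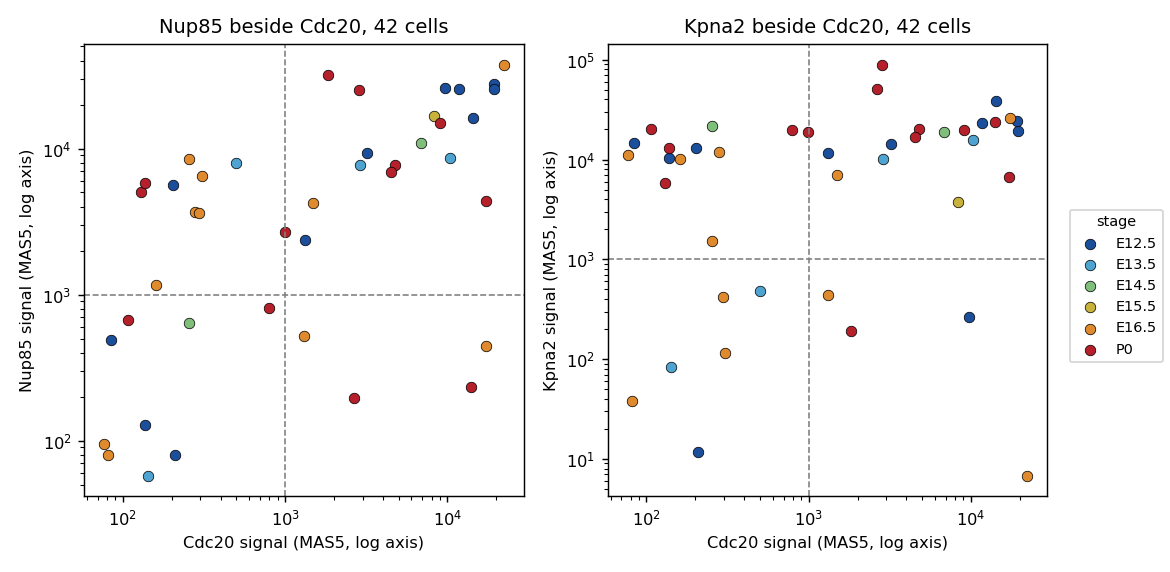
Signal of Nup85 (left panel) and Kpna2 (right panel) beside that of Cdc20 in the 42 cells, log axes, colored by stage, with dashed lines at 1000. Most cells high in Cdc20 are high in Nup85, with 4 exceptions in the lower right, while Kpna2 is high on both sides of the Cdc20 line (19 of 23 and 13 of 19 cells).

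Kpna2 was present in 19 of 23 cells with Cdc20 (6.81, 16920 and 89519) and in 13 of 19 cells without it (11.8, 10456 and 21533), a difference of 14.2 points (interval -11.4 to 38.9). Its correlation with Cdc20 was 0.59 within E12.5, -0.15 within E16.5 and 0.24 within P0. By in situ hybridization on dissociated P0 cells, the study found Kpna2 almost only in cells labeled in S phase. Kpna6, an importin alpha of the same subfamily as Kpna1, was present in 8 of 23 and 4 of 19 cells (13.7 points, -13.7 to 37.6). Kpnb1 was present in 21 of 23 and 18 of 19 cells and Xpo1 in 21 of 23 and 17 of 19, with correlations of 0.24 and 0.06. Outside the symbol rule, Cse1l was present in 19 of 23 and 12 of 19 cells (19.5 points, -7.06 to 43.9) and had a correlation of 0.42.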

How the data were processed

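The authors scaled each array to a common target with MAS5 and deposited a linear intensity (signal) for each probe set. In the deposited values the mean of each array, after trimming, was nearly the same. Symbols came from the platform annotation. The value of a gene was the highest signal of its probe sets with 1 symbol, 107 probe sets for the 41 members, 15 of which can bind related transcripts (names ending in s or x). All 41 identifiers matched RefSeq. Shares have exact (Clopper-Pearson) 95% intervals and differences Newcombe intervals. Only the Newcombe intervals were checked on simulated data, at 1 pair of rates. Intervals take each cell as 1 count, cover counting error only and leave out the spread between animals. Correlations have no p. Python 3.11.15, numpy 2.4.6, pandas 2.3.3, scipy 1.17.1 and matplotlib 3.10.9 were used.

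Members, lists and tests were chosen with earlier results of these data known. Values by stage were given for the 10 members in the most cells and those past 30 points. Alternatives were the level, the value of a gene, depth, normalization, the arrays kept and the limit. Promoter windows came from RefSeq. Genes of the pathway beyond the lists, and 3 probe sets with several symbols, were not used in the report.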

Additional observations from a re-analysis of the deposited data

Results flagged for a closer look

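At E13.5, with 4 cells, the cell farthest from the others was checked for 17 results, and 2 stood apart. Kpnb1 had a signal of 380 in E13.5 A6, against 17758 to 18356 in the other 3 cells. Nup85 had a signal of 57.6 in E13.5 A5, against 7752 to 8576 in the other 3. A rate of about 1 in 20 such groups by chance holds for values with a normal distribution. These signals were mostly either high or well under the level, and the rate for them was not tested.

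Probe sets that the annotation gives to 2 genes were left out of the report, and 2 of them reached 1000 in more than 3 cells. The probe set of Ipo4 and Tm9sf1 did so in 5 cells, with a highest signal of 4637 in P0 G2, and that of Kpna4 and 9630025H16Rik in 8 cells, with a highest signal of 13347 in E12.5 B4. To which gene of each pair these signals belong was not tested.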

How the results depend on the processing

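The median number of members per cell was 17.5 and ran from 14.5 to 20.5 under 8 other settings. The median number of cells per member was 19 and ran from 13 to 23. These moves were under 1 SD of the counts over cells and over members, which is a spread and not an error of the median. The share of values present was 51.6% at a level of 500, 35.1% at a level of 2000 and 35.8% with the mean of the probe sets. Of 155 single-gene values recomputed, 2 left the interval of the main value and none changed sign. These intervals are wide with so few cells, and the settings used the same cells or most of them. Staying within them therefore does not show that a value is stable. Kpna4, at 34.3 points in the main setting and 17.5 at the lowest, counted as within. In a level of 2000, in the 3000 highest genes of each cell and after quantile normalization, 1 member (Kpna3) was past the limit at P0 upward (10.6, 6.98 and 7.11% of all genes). Under both of the last, 5 were past it downward (Ipo13, Nup188, Nup210, Nup50 and Xpo7; 6.14 and 5.82% of all genes), 2 were past it with Cdc20 upward (Nup210 and Nup85; 1.95 and 2.10%) and 1 downward (Tnpo3; 1.48 and 1.52%). With Cdc20, 2 were past it upward at a level of 500 (Kpna6 and Xpo6; 2.19% of all genes), and 1, Nup85, at a level of 2000, with the mean of the probe sets, with the probe set of the highest mean, without the 5 arrays of a different control pattern (where Nup43 was the 1 past it downward, 2.23%) and without E13.5 A6 and E16.5 F1 (2.18 to 3.75% of all genes upward in these), a setting chosen after the data were seen, as was leaving out single cells. At a limit of 20 points, 6 members were past it at P0 upward and 4 downward (24.4 and 8.68% of all genes), and 3 upward and 2 downward with Cdc20 (7.39 and 7.33%). At 40 points, 1 was past it at P0 upward and 1 downward (Kpna3 and Xpo7; 4.35 and 1.13% of all genes). The correlation of Nup85 with Cdc20 was 0.41 after quantile normalization and 0.56 to 0.71 under the others. The causes were not tested. The number of cells and the loss of transcripts in amplification limit these values, and 8.30% of the member values lay between 500 and 1000. No paired analysis was possible because no test was made and cell names mark no shared animal.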
